A study of Mus musculus with 20 samples.

Results

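The immediate early genes Fos, Fosb, Jun, Junb, Egr1, Atf3, Ier2, Dusp1, Nr4a1 and Zfp36 were measured in the endothelial ribosome-bound RNA and in the whole homogenate of Py8119 breast tumors. They were taken by name from the count table and are 10 of its 55866 genes. The tumors grew in female RiboTagEC mice (Rpl22HA/HA x Cdh5CreERT2) on a C57BL/6J background, which received 75 mg/kg of tamoxifen on 5 days from an age of 3 weeks and an implant of Py8119 murine mammary tumor cells at 8 weeks. Established tumors were treated for 10 days with 25 mg/kg per injection of 6-3-A6, an antibody that blocks the receptor Notch4, or of control mouse IgG. From each of 5 tumors per treatment, part of the lysate was sequenced as input and the rest went through immunoprecipitation (IP) of the hemagglutinin tag on Rpl22, which gave 20 libraries in 4 groups of 5: control IgG input, control IgG IP, 6-3-A6 input and 6-3-A6 IP. All animals of both groups carried the tag and received tamoxifen, and the tag is placed only in cells in which the Cdh5 promoter drove Cre, so that tumor cells and most stroma are present in input and untagged in IP.

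Immediate early genes are switched on within minutes of a growth factor, cytokine or stress signal, without new protein synthesis, through factors that are already in place at their promoters, such as SRF with its ternary complex partners and CREB. Many of their products are transcription factors, among them the Fos and Jun families that pair to form AP-1, and others shut the response off again by removing phosphate from MAP kinases or by degrading mRNA. In endothelial cells they respond to VEGF, thrombin and shear stress, and they are also known to rise while tissue is being excised or dissociated.

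Library totals lay between 11881214 and 26728205 counts on genes. The smallest count of a member was 10 for Fosb in 6-3-A6 input 4, so no member was limited by a count of 0, and all 10 passed the filter on low counts in every comparison. The description lines of the 6-3-A6 libraries name the opposite fraction from their titles, and the titles were followed: the summed level of 17 endothelial markers was 204 to 309 CPM (counts scaled to the library total and its TMM factor) in the libraries titled 6-3-A6 input and 1268 to 6301 CPM in those titled 6-3-A6 IP. All 17 markers were called higher in IP, with log2 fold changes between 3.16 and 5.42. Of these, Egfl7 did not pass the filter on low counts in the inputs alone and entered that test through the IP libraries. Macrophage markers remained in IP at a summed 3201 to 8875 CPM, against 6298 to 15121.5 CPM in input, and 8 of the 11 tested were called lower in IP. Mitochondrial transcripts held 38.2% of the counts of 6-3-A6 input 4 and 6.90 to 17.2% in the other inputs. Because tissue was sequenced in bulk, fewer cells of a type and less RNA per cell cannot be told apart. Replicates were separate tumors.

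The members differed in level. On the scale of CPM per kilobase of the gene span, Jun, the main partner in AP-1 dimers, had the highest mean input level with 29.9 ± 3.76 (SD, n = 10 tumors). The next highest mean was that of Ier2, a small nuclear regulator, with 23.6 ± 6.95. Zfp36, which encodes the mRNA-degrading protein tristetraprolin, reached 22.1 ± 12.6 CPM per kilobase, Junb, a Jun relative, 20.6 ± 2.40, and the zinc finger factor Egr1 11.4 ± 2.33. Fos, the dimer partner of Jun, stood at 5.42 ± 4.04 CPM per kilobase. The other 4 lay under 1 CPM per kilobase: Fosb, a second Fos relative, at 0.864 ± 0.365, the orphan nuclear receptor Nr4a1 at 0.821 ± 0.240, Dusp1, the phosphatase that inactivates MAP kinases, at 0.498 ± 0.373, and Atf3, a stress-induced bZIP factor, at 0.294 ± 0.101. Junb was above Egr1 in 10 of 10 inputs and Fos above Fosb in 10 of 10, whereas Zfp36 was above Junb in only 3 of 10 and Fosb above Nr4a1 in 5 of 10, so those neighbours did not differ beyond their spread. The top ranks were not firm either. Jun was above Ier2 in 7 of 10 inputs (mean log2 gap 0.39, SD 0.49) and Ier2 above Zfp36 in 6 of 10 (0.20, SD 0.53). In IP the order was similar, with Junb (25.4 ± 8.09) above Zfp36 (21.3 ± 13.1) and with Dusp1 at 1.34 ± 0.598, Nr4a1 at 1.29 ± 0.523 and Fosb at 1.12 ± 0.548. Dusp1 was above Nr4a1 in only 5 of 10 IP libraries and Zfp36 above Egr1 in 6 of 10. Jun was above Ier2 in 7 of 10 IP libraries and Nr4a1 above Fosb in 7 of 10. These neighbours did not differ beyond their spread either. The order per kilobase depends on the divisor, which was the whole gene span with introns. The 4 members with the lowest level per kilobase are those with the longest spans, Dusp1 (56539 bases), Atf3 (47744 bases), Nr4a1 (20527 bases) and Fosb (7356 bases), whereas the other members span 1524 to 5162 bases.

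**Figure D1:**
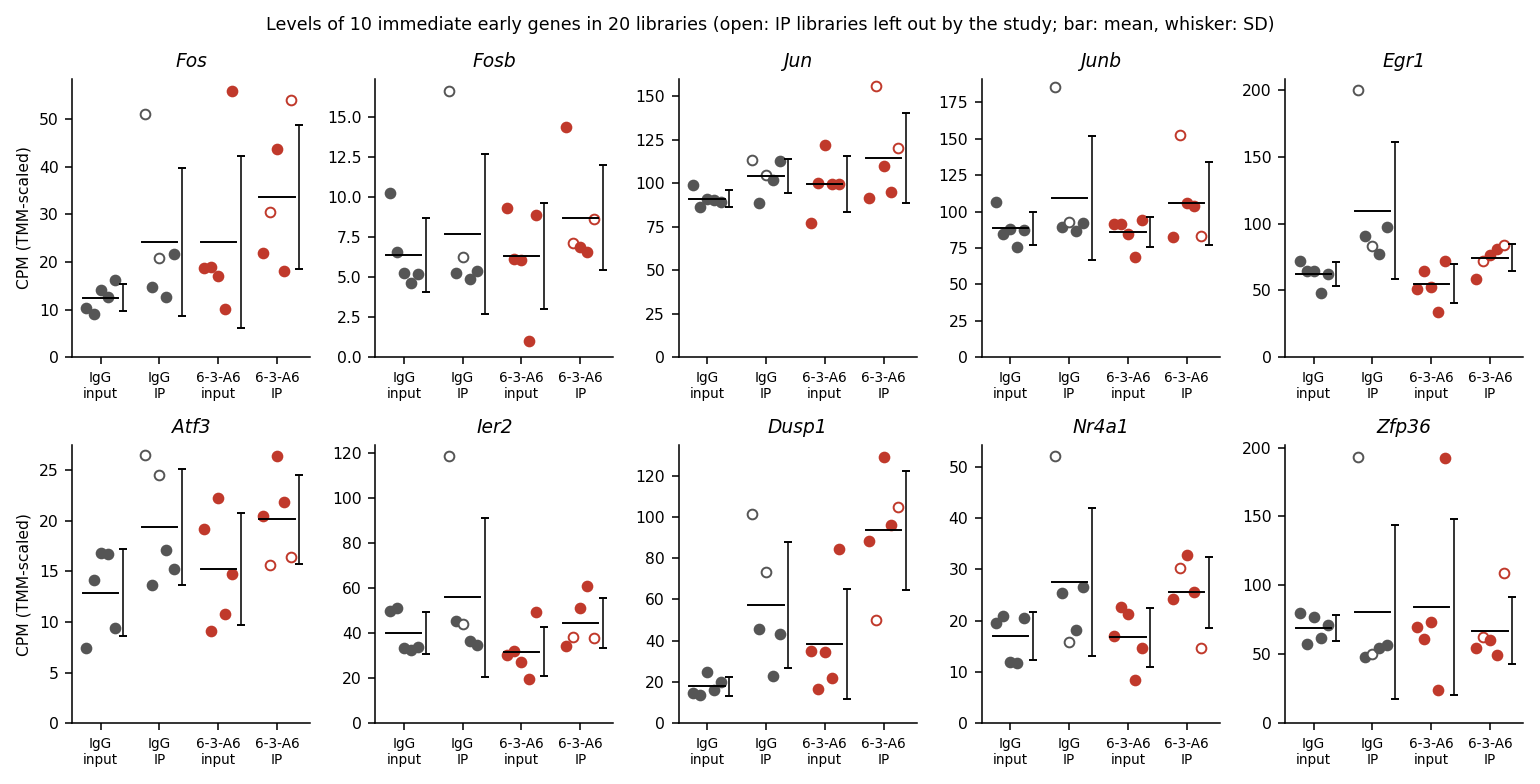
Level of each gene (vertical axis, TMM-scaled CPM from 0) in the 4 groups of 5 libraries, in grey for control IgG and red for 6-3-A6, with points in the order of tumors 1 to 5 from left to right. Open points are the 4 IP libraries that the study left out, horizontal bars are means and whiskers are SDs over 5 libraries. Control IgG IP 1 is the highest point of its group in all 10 panels, and 6-3-A6 input 5 stands above the other inputs for Fos, Dusp1 and Zfp36.

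The comparison of IP with input asked which of these transcripts were on endothelial ribosomes at a higher share than in the whole tumor. Dusp1, Egr1, Nr4a1 and Atf3 were higher in IP, and 0 members were lower. These 4 of 10 stand beside 40.4% of the 14488 genes tested that were called, 19.6% higher and 20.8% lower (edgeR quasi-likelihood test over 20 libraries with treatment as a term, Benjamini-Hochberg adjusted p under 0.05). The median log2 fold change of the 10 members was 0.49, against -0.06 over all genes tested. The largest log2 fold change of a member, 1.48, was under the lowest of the 17 endothelial markers, 3.16. For none of the 10 members did the 10 IP libraries lie apart from the 10 inputs, as they did for 4.8% of the genes tested.

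Dusp1 (GRCm39, chromosome 17, 26724564 to 26781102, minus strand) differed most. Its level in control IgG input was 14.7, 13.8, 25.0, 16.3 and 19.8 CPM in tumors 1 to 5, and in the IP of the same tumors 101.5, 45.9, 73.4, 23.1 and 43.3 CPM. In 6-3-A6 input it was 35.0, 16.4, 34.4, 22.0 and 84.2 CPM, and in 6-3-A6 IP 88.2, 49.9, 128.9, 96.0 and 105.0 CPM. Every IP library was above the input of its own tumor, yet the fractions overlapped as groups, and input of 6-3-A6 tumor 5 was higher than 5 of the 10 IP libraries. The ratio of IP to input within a tumor ran from 1.25 in 6-3-A6 tumor 5 to 6.91 in control IgG tumor 1, with a median of 2.99. The log2 fold change was 1.48 (standard error, SE, 0.277, 95% interval 0.908 to 2.06, edgeR adjusted p = 0.000258), and in fits within 1 treatment, added after the values had been seen, it was called in control IgG (1.68, edgeR adjusted p = 0.00609, beside 10.1% of genes called higher) and in 6-3-A6 (1.30, edgeR adjusted p = 0.0381, beside 9.82%). In the same fits Egr1 was called in control IgG (0.81, edgeR adjusted p = 0.0448) and not in 6-3-A6 (0.45, edgeR adjusted p = 0.152), and neither Nr4a1 (edgeR adjusted p = 0.147 and 0.158) nor Atf3 (0.152 and 0.303) was called in either. These fits leave out that both fractions came from 1 lysate. With the tumor as a block, Dusp1 was called in both treatments, while Egr1 (0.73, edgeR adjusted p = 0.00669), Nr4a1 (0.62, edgeR adjusted p = 0.0194) and Fos (0.78, edgeR adjusted p = 0.0483) were called in control IgG, beside 17.5% of genes called higher, and not in 6-3-A6 (edgeR adjusted p = 0.106, 0.0796 and 0.0729, beside 13.3%). Atf3 was called in neither (edgeR adjusted p = 0.0777 and 0.116). Whether the treatments differed is the interaction described further on, for which 0 members were called. Of the span of Dusp1, 7.17% is shared with 5 overlapping genes, and whether reads there were split by strand is not given in the sources used here.

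Among the transcription factors, Egr1 was at 72.0, 64.6, 64.6, 48.1 and 62.3 CPM in control IgG input and at 199.9, 90.6, 83.1, 77.4 and 97.6 CPM in control IgG IP. In 6-3-A6 input it was at 51.2, 64.9, 52.4, 34.0 and 72.3 CPM, and in 6-3-A6 IP at 58.5, 72.1, 76.8, 80.95 and 84.0 CPM. All 10 tumors had more Egr1 in IP, and over the 10 tumors the fractions overlapped. The log2 fold change was 0.63 (SE 0.167, edgeR adjusted p = 0.00537).

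Nr4a1 (chromosome 15, 101152150 to 101172676, plus strand) was at 19.5, 20.9, 11.9, 11.8 and 20.6 CPM in control IgG input against 52.0, 25.4, 15.8, 18.1 and 26.5 CPM in IP. In 6-3-A6 it was at 16.9, 22.8, 21.2, 8.37 and 14.6 CPM in input against 24.2, 30.2, 32.7, 25.6 and 14.7 CPM in IP. It was also higher in IP in 10 of 10 tumors, although in 6-3-A6 tumor 5 only by 1.00-fold. Its log2 fold change was 0.65 (SE 0.216, edgeR adjusted p = 0.0210). Over the 6 tumors whose IP library the study kept it was 0.61 with an adjusted p of 0.0676 in the same edgeR test. Of all genes tested, 13.6% were higher in IP in 10 of 10 tumors, and among the members these were Dusp1, Egr1 and Nr4a1.

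Atf3 (chromosome 1, 190902493 to 190950236, minus strand) was at 7.40, 14.1, 16.8, 16.7 and 9.42 CPM in control IgG input and at 26.5, 13.6, 24.5, 17.1 and 15.2 CPM in IP. In 6-3-A6 it was at 19.2, 9.12, 22.2, 10.8 and 14.8 CPM in input and at 20.4, 15.6, 26.4, 21.8 and 16.4 CPM in IP. The difference was clear in some tumors and close to nothing in control IgG tumors 2 and 4 and in 6-3-A6 tumor 1. The log2 fold change of 0.49 (SE 0.190, edgeR adjusted p = 0.0426) was the least firm of the 4: it was no longer called without control IgG tumor 1 (0.36, edgeR adjusted p = 0.123), nor without control IgG tumor 3 or 5 or 6-3-A6 tumor 2 or 4, where the edgeR adjusted p was 0.0561 to 0.0713, nor by voom (0.37, adjusted p = 0.0912).

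Fos (chromosome 12, 85520664 to 85524047, plus strand) was at the edge of the threshold. Control IgG input had 10.4, 9.05, 14.1, 12.7 and 16.3 CPM and control IgG IP 51.0, 14.8, 20.8, 12.7 and 21.7 CPM. In 6-3-A6, input had 18.7, 18.9, 17.1, 10.2 and 55.9 CPM and IP 21.8, 30.5, 43.6, 18.1 and 54.0 CPM. IP was above input in 8 of 10 tumors, and the exceptions were control IgG tumor 4 and 6-3-A6 tumor 5, where the fractions were nearly equal. The log2 fold change was 0.71 (SE 0.294, edgeR adjusted p = 0.0578), and with the tumor as a block, which uses that both fractions came from 1 lysate, it was 0.69 and called (edgeR adjusted p = 0.00834, beside 24.8% of all genes called higher in that fit). Without 6-3-A6 tumor 5 it was 0.89 (edgeR adjusted p = 0.00709), and without 6-3-A6 tumor 4 or control IgG tumor 4 it was called as well, with edgeR adjusted p values of 0.0399 and 0.0494. DESeq2 (adjusted p = 0.0301) and voom (adjusted p = 0.0313) called it over all libraries. Without control IgG tumor 1 it was 0.45 (edgeR adjusted p = 0.191), and over the 6 tumors kept by the study 0.61 (edgeR adjusted p = 0.0968).

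The Fos and Jun relatives did not pass the test. Fosb had a log2 fold change of 0.36 with a 95% interval of -0.25 to 0.97, and Junb 0.30 with an interval that ended at 0.60 and reached 0. Jun was held within the narrowest interval, from -0.02 to 0.41 around 0.20. Ier2, at 0.48 (edgeR adjusted p = 0.0708), was called without 6-3-A6 tumor 5 (0.60, edgeR adjusted p = 0.0337), by DESeq2 (adjusted p = 0.0456) and by voom (adjusted p = 0.0190). It was 0.31 without control IgG tumor 1 (edgeR adjusted p = 0.141) and was not called in 9 of the 10 fits that leave out 1 tumor, nor with the tumor as a block (edgeR adjusted p = 0.0571).

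Zfp36 was the member that did not follow the others. Control IgG input had 79.8, 57.6, 76.8, 62.0 and 71.0 CPM, and control IgG IP 193.1, 47.8, 50.4, 54.8 and 56.8 CPM. In 6-3-A6, input had 69.8, 61.1, 73.2, 24.1 and 192.6 CPM and IP 55.0, 62.8, 60.1, 49.2 and 109.2 CPM. IP was above input in 3 of 10 tumors, namely control IgG tumor 1 and 6-3-A6 tumors 2 and 4. The log2 fold change was -0.05 (95% interval -0.68 to 0.57, edgeR adjusted p = 0.898), but without control IgG tumor 1 and 6-3-A6 tumors 4 and 5, an alternative added after the values had been seen, it was called lower in IP at -0.28 (edgeR adjusted p = 0.0256). Of its span, 36.7% is shared with the antisense gene Gm44710.

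**Figure D2:**
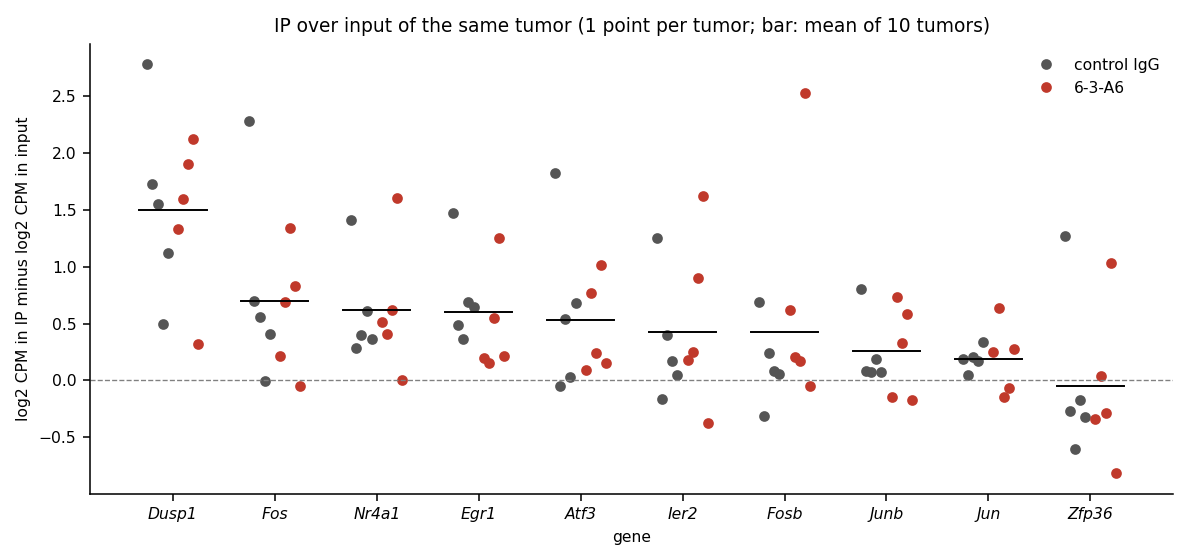
Difference between IP and input of the same tumor (vertical axis, log2 CPM) for each gene, ordered by the mean, with 1 point per tumor in grey for control IgG and red for 6-3-A6, and a bar for the mean of 10 tumors. All points of Dusp1, Egr1 and Nr4a1 lie above 0, most points of Zfp36 below, and the difference is largest in control IgG tumor 1 for 6 of the 10 genes.

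**Figure D3:**
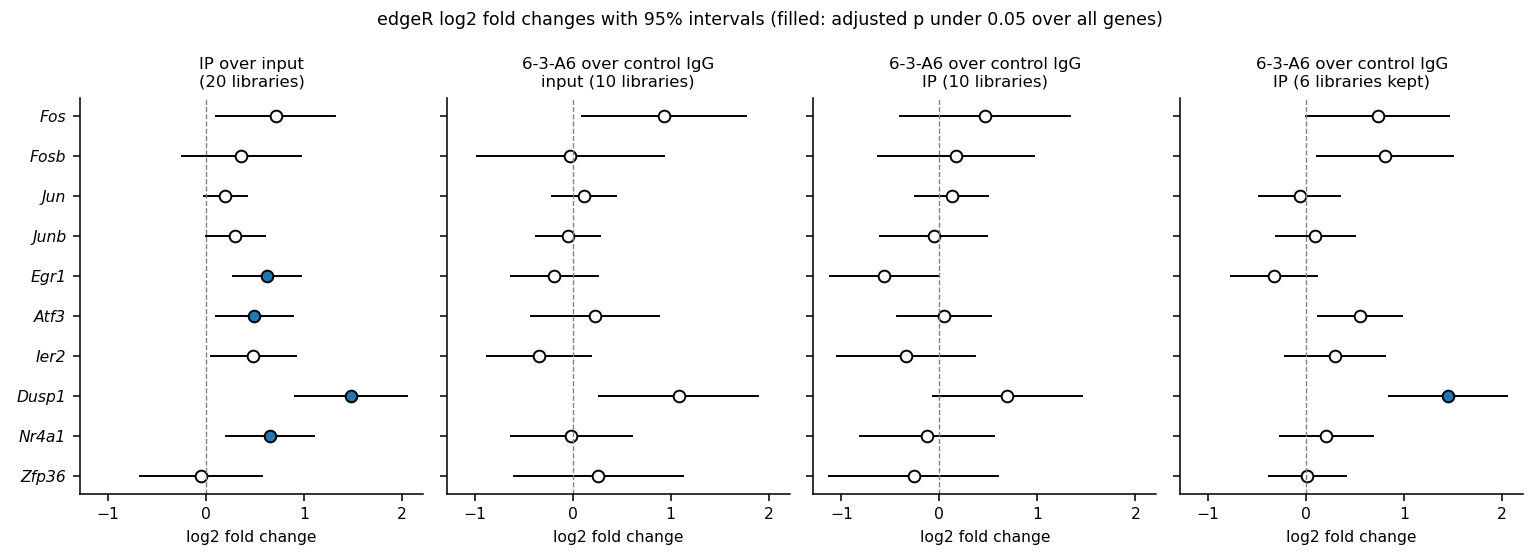
Log2 fold change of each gene with its 95% interval (horizontal axis) in IP over input and in 6-3-A6 over control IgG for input, for all 10 IP libraries and for the 6 that the study kept. Filled points have an edgeR adjusted p under 0.05, which holds for Dusp1, Egr1, Nr4a1 and Atf3 in the comparison of fractions and for Dusp1 over the kept libraries.

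The treatment comparison asked whether 6-3-A6 changed these transcripts. In input, 0 of 13683 genes were called (edgeR, with 1.32% at an unadjusted p under 0.05, and 0 by DESeq2 and voom), so no member was. The largest differences were those of Dusp1, with a log2 fold change of 1.08 (95% interval 0.264 to 1.90, edgeR adjusted p = 0.9999), and Fos, with 0.93 (95% interval 0.0948 to 1.77, edgeR adjusted p = 0.9999). Both leaned on 6-3-A6 tumor 5, whose input held 84.2 CPM of Dusp1 and 55.9 CPM of Fos. Without it the log2 fold changes were 0.58 and 0.38. That input also had the highest summed level of macrophage markers (15121.5 CPM) and of lymphoid markers (209 CPM, against 26.8 to 82.6 CPM in the other inputs), and the part of these cells in the result was not tested. The log2 fold changes of the other 8 members were 0.26 for Zfp36, 0.23 for Atf3, 0.12 for Jun, -0.015 for Nr4a1, -0.023 for Fosb, -0.049 for Junb, -0.19 for Egr1 and -0.35 for Ier2, and the groups overlapped for all 10, where 0.221% of genes had groups that did not.

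In all 10 IP libraries, 0 of 13602 genes were called (edgeR, with 2.15% at an unadjusted p under 0.05, and 0 by DESeq2 and voom). Dusp1 had a log2 fold change of 0.69 (95% interval -0.07 to 1.46) and Fos of 0.47 (95% interval -0.40 to 1.34). Without control IgG IP 1, the highest library of its group for both, Fos was at 0.92 and Dusp1 at 0.99, and without 6-3-A6 IP 5 Fos was at 0.22 (edgeR, none called). Egr1 went the other way with -0.57 (95% interval -1.12 to -0.02, edgeR adjusted p = 0.99999). That value rested on the 199.9 CPM of control IgG IP 1, and without that library it was -0.24. The remaining members were at 0.17 (Fosb), 0.12 (Jun), 0.043 (Atf3), -0.060 (Junb), -0.13 (Nr4a1), -0.26 (Zfp36) and -0.34 (Ier2). The 95% intervals of Egr1, Ier2 (-1.05 to 0.37) and Zfp36 (-1.13 to 0.60) reached below -1 and those of Dusp1 and Fos above 1 on the log2 scale. The groups overlapped for all 10 members, where 0.207% of genes had groups that did not.

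The study compared 3 control IgG IP libraries (tumors 2, 4 and 5) with 3 of 6-3-A6 (tumors 1, 3 and 4) after leaving out the others as outliers of a principal component analysis. The paper reports that the treatments separated poorly before this removal and more clearly after it. The choice thus used the same IP data and can enlarge a group difference, so p values and separations among these libraries are not an independent test. Among these 6, Dusp1 was higher in 6-3-A6: it was at 45.9, 23.1 and 43.3 CPM in control IgG and at 88.2, 128.9 and 96.0 CPM in 6-3-A6, a log2 fold change of 1.45 (SE 0.273, edgeR adjusted p = 0.0211). It was 1 of 10 members called, beside 4.61% of the 13999 genes tested (2.57% higher and 2.04% lower). The 646 genes called fell to 345 without 6-3-A6 IP 1, 9 without 6-3-A6 IP 3, 161 without 6-3-A6 IP 4 and 188 without control IgG IP 4. The libraries left out held 101.5 and 73.4 CPM in control IgG and 49.9 and 105.0 CPM in 6-3-A6, so over all 10 the groups overlapped. Without 6-3-A6 IP 3 the log2 fold change was 1.27 (edgeR adjusted p = 0.0812) and without 6-3-A6 IP 4 it was 1.504 (edgeR adjusted p = 0.0534).

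Atf3 (0.55, edgeR adjusted p = 0.141) and Fosb (0.80, edgeR adjusted p = 0.187) were not called over the kept libraries, although their groups, like those of Dusp1, did not overlap there. Such a separation was seen for 3 of 10 members, all with 6-3-A6 higher, and for 24.3% of all genes tested, 13.6% with 6-3-A6 higher and 10.7% with 6-3-A6 lower. Fos, at 0.73 (edgeR adjusted p = 0.258), was called without a filter on low counts (0.76, edgeR adjusted p = 0.0298) and by voom (1.15, adjusted p = 0.0313), and voom also called Atf3 (0.74, adjusted p = 0.0157). Without 6-3-A6 IP 3, however, Fos was at 0.26 (edgeR adjusted p = 0.830), and without 6-3-A6 IP 1 Fosb was at 0.34 (edgeR adjusted p = 0.523). The remaining 6 members were at 0.29 (Ier2), 0.20 (Nr4a1), 0.093 (Junb), 0.014 (Zfp36), -0.066 (Jun) and -0.33 (Egr1). The endothelial content of the kept libraries differed in the same direction: the summed endothelial markers were at 1544 to 5012 CPM in control IgG and 5034 to 6301 CPM in 6-3-A6, with 5 of 17 called higher, and the summed macrophage markers at 6480 to 7608 CPM and 3201 to 3839 CPM, with 6 of 11 called lower. Among other marker lists, 3 of 4 globin genes were called higher in 6-3-A6 (median log2 fold change 3.21). Of fibroblast markers 2 of 9 and of epithelial markers 2 of 6 were called lower, and of 7 mural markers 1 was called higher and 1 lower. The part of these differences in the values of Dusp1 was not tested.

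Whether the treatment difference itself changed between the fractions was tested as the interaction of treatment and fraction over 20 libraries, for which 0 of 14488 genes were called (edgeR, with 0.863% at an unadjusted p under 0.05, and 0 by DESeq2 and voom). The interaction of the members lay between -0.54 for Zfp36 (95% interval -1.79 to 0.71) and 0.20 for Fosb (95% interval -1.05 to 1.44), and that of Dusp1 was -0.40 (95% interval -1.54 to 0.75). Fos was at -0.47, Egr1 at -0.38, Atf3 at -0.19, Nr4a1 at -0.10, Junb at -0.011, Ier2 at 0.0042 and Jun at 0.0055. With the tumor as a block, which uses that both fractions came from 1 lysate, the interaction was -0.060 for Zfp36 (95% interval -0.88 to 0.76), 0.42 for Fosb (95% interval -0.45 to 1.29) and -0.081 for Dusp1 (95% interval -0.97 to 0.80), again with no member called. In that fit the intervals of Fosb and Fos (-1.03 to 0.67) covered a difference of 2-fold between the fractions and those of the other 8 members did not.

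The spread between tumors differed among the members and between the groups. Of 40 SDs of log2 CPM (10 genes in 4 groups), 26 exceeded the median SD over the 14488 tested genes of the same group, and 21 did without control IgG IP 1. By group these were 6 of 10 members in control IgG input, 9 in control IgG IP, 6 in 6-3-A6 input and 5 in 6-3-A6 IP. The medians over genes were 0.321 in control IgG input, 0.384 in control IgG IP, 0.493 in 6-3-A6 input and 0.373 in 6-3-A6 IP. Jun was the steadiest, with SDs from 0.0755 in control IgG input to 0.309 in 6-3-A6 IP, under the median in all 4 groups. Zfp36 reached 1.06 in 6-3-A6 input, an 8.00-fold range between 24.1 and 192.6 CPM, and 0.847 in control IgG IP, but only 0.200 in control IgG input. Fos, Dusp1, Fosb and Nr4a1 were above the median in all 4 groups. The SDs of Fos and Dusp1 reached 0.893 and 0.891 in 6-3-A6 input, and without input 5 they were 0.424 and 0.528, beside a median over genes of 0.434. Fosb had the largest SD of any member, 1.24 in 6-3-A6 input, which came down to 0.329 without input 4.

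Much of this spread came from a few libraries. Control IgG IP 1 was the highest of its group for 10 of 10 members, on average 1.12 above the group median on the log2 scale, while the input of the same tumor lay only 0.0879 above that of its group. With that library, 9 of 10 members had an SD above the median gene in control IgG IP, and without it 4 did, and the median SD of the members fell from 0.692 to 0.168. Its endothelial markers (7175 CPM) were the highest of its group and its macrophage markers (5725 CPM) within the range of the others. 6-3-A6 input 4, the library with 38.2% mitochondrial counts, was the lowest of its group for 7 of 10 members and deviated from the group median by -0.86 on average. Leaving it out brought the median SD of all genes in 6-3-A6 input from 0.493 to 0.343, and that of the members from 0.554 to 0.353.

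**Figure D4:**
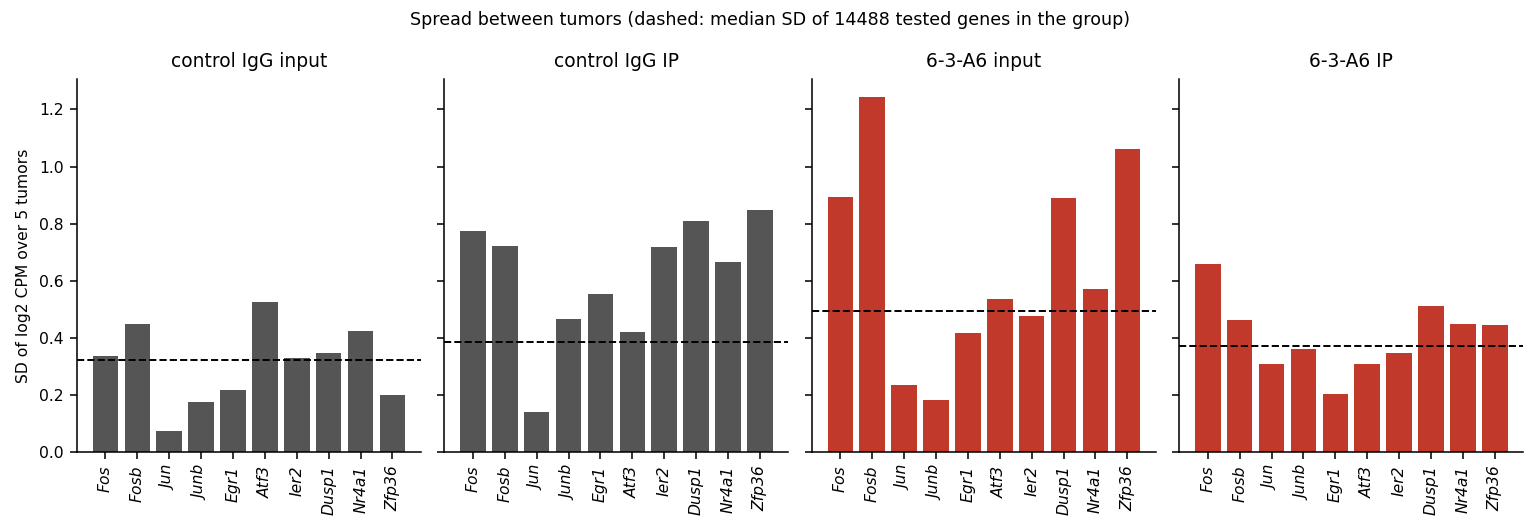
SD of log2 CPM over the 5 tumors of a group (bars, vertical axis from 0) for each gene, with a panel per group and a dashed line at the median SD of the 14488 tested genes. Control IgG IP has 9 of 10 bars above the line, 6-3-A6 IP has 5, and Jun lies below the line in all 4 panels.

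6-3-A6 tumor 5 had a pattern of its own. Its input was the highest of its group for Fos (55.9 CPM), Dusp1 (84.2 CPM), Zfp36 (192.6 CPM), Ier2 (49.6 CPM), Egr1 (72.3 CPM) and Junb (94.0 CPM), and its IP was the highest for Fos (54.0 CPM), Egr1 (84.0 CPM) and Zfp36 (109.2 CPM). Nr4a1 was the reverse, with the lowest level of 6-3-A6 IP in this tumor (14.7 CPM). Thus the members did not rise and fall as 1 block. Over the 10 inputs, 35 of the 45 pairs of members had a Pearson r above 0 with a median of 0.228, and over the 10 IP libraries 42 of 45 with a median of 0.449. In input, Fos was closest to Dusp1 (r = 0.87) and Zfp36 (r = 0.77), and Egr1 to Ier2 and Junb (both r = 0.86). These correlations are a description: the points share their library and its scaling, and libraries that stand apart weigh on them.

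**Figure D5:**
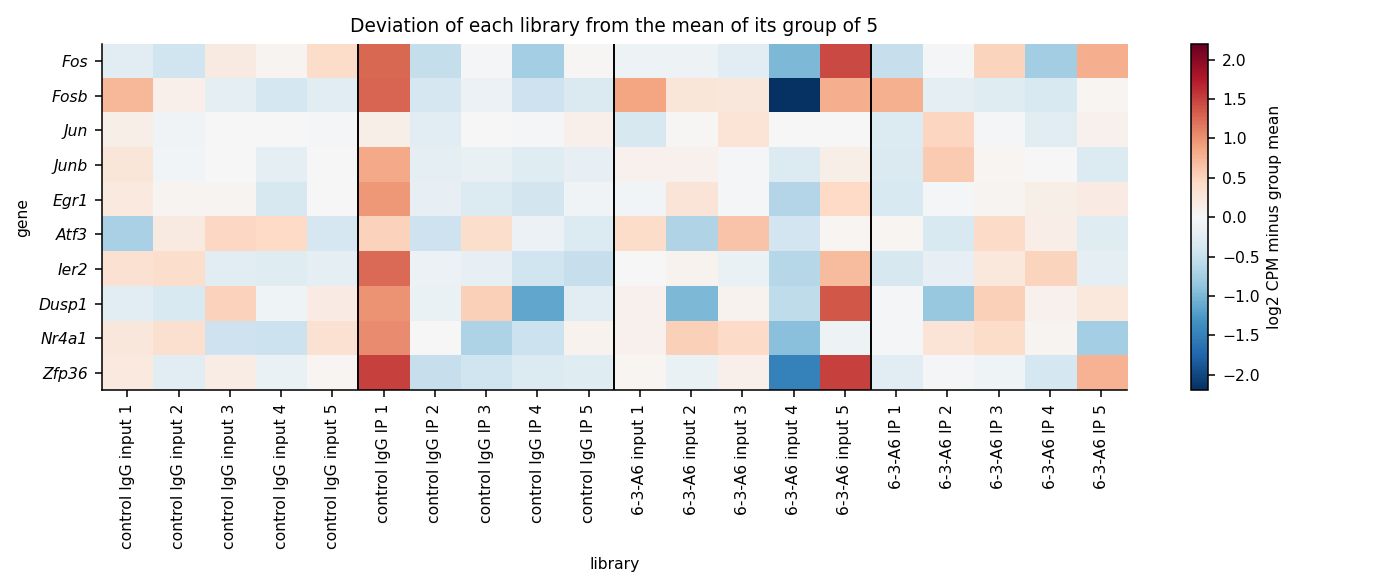
Log2 CPM of each gene (rows) in each of the 20 libraries (columns) minus the mean of its group of 5, in red above and blue below. The column of control IgG IP 1 is red throughout, that of 6-3-A6 input 4 is blue except for Jun, and that of 6-3-A6 input 5 is red mainly for Fos, Dusp1 and Zfp36.

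Sequences are shown upstream of Fos, Dusp1 and Zfp36, whose highest input level of the group was in 6-3-A6 tumor 5, and of Nr4a1, for which it was not. They hold some of the elements through which such genes are known to be induced. RefSeq windows (GRCm38.p6, 250 bases before to 50 after the start) were taken for 8 of the 10 members, without Egr1 and Ier2, and their 250 bases before the start were searched on both strands. The 150 bases before the start are printed, read 5′ to 3′ on the strand of the gene, with capitals for the cAMP response element (CRE, TGACGTCA), its short form (TGACG, contained in the full CRE), the TATA box (TATAAA) and the CArG box, which SRF binds.

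Fos (chr12:85473740-85473889, plus strand): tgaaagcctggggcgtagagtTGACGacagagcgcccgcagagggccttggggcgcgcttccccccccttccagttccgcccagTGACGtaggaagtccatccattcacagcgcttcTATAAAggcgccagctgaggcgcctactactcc

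Dusp1 (chr17:26508473-26508622, minus strand): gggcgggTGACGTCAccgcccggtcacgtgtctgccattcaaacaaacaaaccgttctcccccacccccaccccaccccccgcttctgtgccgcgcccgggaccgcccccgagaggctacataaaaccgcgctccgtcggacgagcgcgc

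Nr4a1 (chr15:101266696-101266845, plus strand): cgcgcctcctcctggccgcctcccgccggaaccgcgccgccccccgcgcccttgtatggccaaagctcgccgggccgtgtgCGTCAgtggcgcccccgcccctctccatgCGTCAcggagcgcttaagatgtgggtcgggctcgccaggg

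Zfp36 (chr7:28379229-28379378, minus strand): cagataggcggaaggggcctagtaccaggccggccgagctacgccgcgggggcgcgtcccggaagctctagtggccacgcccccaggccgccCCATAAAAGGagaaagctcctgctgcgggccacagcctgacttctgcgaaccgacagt

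The short CRE was found in 6 of the 8 windows (Atf3, Dusp1, Fos, Fosb, Junb and Nr4a1) and in 17.8% of all 32851 windows, and the full CRE in Dusp1 alone and in 1.55% of all. Counted from -1 at the base before the start, the short form begins at -129 and -66 in Fos and the full form at -143 in Dusp1. The CArG box was found in Zfp36 alone and in 1.47% of all windows, the TATA box in Fos alone and in 12.4%, and the AP-1 site (TGANTCA) in 0 of 8 and in 6.75%. The SP1 box (GGGCGG, not capitalized) was found in 7 of the 8 windows, all but that of Junb, and in 32.7% of all, and it lay in each of the 4 stretches printed. The EGR site (GCGNGGGCG), which the SP1 box overlaps in Fosb and Nr4a1, was found in Fosb, Nr4a1 and Zfp36 and in 4.7% of all windows. Such matches are letters in a window and not measured sites.

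The relation between input and IP of the same tumor was weak to moderate. Over the 10 tumors, Pearson's r between the fractions ran from 0.155 for Atf3 (Spearman's rho 0.236, permutation adjusted p = 0.805 for r and 0.708 for rho) to 0.561 for Dusp1 (rho 0.564, permutation p = 0.0925 and 0.0975, adjusted p = 0.282 and 0.308), beside a median r of 0.383 over all 14488 genes. None of the 10 members was called, against 4.71% of all genes (two-sided permutation test, 100000 pairings), a count of 682 genes that was 73 without 6-3-A6 tumor 5 and 74 without control IgG tumor 1. Without the 2 tumors farthest from the median input level, r remained at 0.561 for Dusp1 and fell to 0.0807 for Fos from 0.559 (rho 0.648, permutation p = 0.0806 and 0.0494, adjusted p = 0.262 and 0.229). For Fos those 2 were 6-3-A6 tumor 5 and control IgG tumor 2. With 1 tumor left out, r of Fos was 0.271 without 6-3-A6 tumor 5 and 0.486 without control IgG tumor 2. It rose to 0.819 without control IgG tumor 1 (permutation adjusted p = 0.0948). Fosb rose from 0.486 (rho 0.733, permutation p = 0.168 and 0.0203, adjusted p = 0.388 and 0.160) to 0.854 without 6-3-A6 tumor 4 and control IgG tumor 1. Without 6-3-A6 tumor 4 alone its r was 0.902 and called (permutation adjusted p = 0.0213), the only call of a member over the alternatives run for this relation. That call cannot be set beside the 4.71%, since the number of all genes called changed with the tumor left out, over the range given at the end.

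Other genes of the same response were split between the fractions. Of 12 further AP-1 and bZIP subunits, 2 were called higher in IP (Fosl2, log2 fold change 0.82, and Maff, 0.67) and 3 lower, among them Batf (-0.92) and Fosl1 (-0.68), subunits known from immune and tumor cells. Of 13 other rapidly induced transcription regulators tested, 6 were higher, led by Crem (0.89) and the flow-responsive endothelial factor Klf2 (0.81), and 1 was lower, Nr4a2 (-0.68), a close relative of Nr4a1. Srf, the factor that binds the CArG box, was at 0.40 (edgeR adjusted p = 0.0182). These lists, and those that follow, stand beside the 19.6% and 20.8% of all genes called higher and lower.

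Of 21 feedback inhibitors tested, 5 were higher and 4 lower in IP, shares close to those of all genes. Dusp2, a nuclear relative of Dusp1, was at 1.01 to 15.6 CPM over the 10 inputs and 7.44 to 67.1 CPM over the 10 IP libraries, a log2 fold change of 2.97 (SE 0.520, edgeR adjusted p = 0.000126). Spry4, an inhibitor of receptor tyrosine kinase signaling, was at 6.59 to 19.8 CPM and 41.6 to 158.0 CPM without overlap, a log2 fold change of 2.58 (SE 0.262, edgeR adjusted p = 8.37e-08), while Gadd45a (-0.52) and Nfkbiz (-0.40) were lower in IP. Of 11 secreted and signaling genes, 5 were higher, among them the vasoconstrictor peptide gene Edn1 (1.43) and Il6 (1.40), and 3 lower, among them Areg (-1.24), an EGFR ligand, and the neutrophil chemokine Cxcl1 (-1.18). The call of Il6 was close to the threshold (edgeR adjusted p = 0.0453), with IP higher in 8 of 10 tumors. Its level was 0.452 to 6.22 CPM in input and 1.53 to 42.5 CPM in IP.

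Of 17 upstream kinases and factors, 4 were higher, including Elk3 (0.48), Mapk8 (0.41) and Creb1 (0.38), and 1 lower, Elk1 (-0.75), so the ternary complex factors that work with SRF differed in direction. Of 10 heat shock genes, Hspb1 (3.07, from at most 0.890 CPM in input) and Bag3 (0.57) were higher and Hspe1 (-0.90) and Hspa8 (-0.29) lower. Hspb1 did not pass the filter on low counts in the inputs alone. It entered this test through the IP libraries in which it was high, so the filter in part fixed its direction. The summed level of the heat shock genes in control IgG IP 1, the library in which the members stood highest, was 2518 CPM, within the 2191 to 2534 CPM of the other 4 libraries of its group.

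By the correlation with the mean standardised level of the 10 members, taken as the smaller of r over 10 inputs and r over 10 IP libraries, the 8 genes most like the members were Prdx5, Lars2, Sirt7, Cib1, Ppox, Prr7, Tspo and Tmem160. Their smaller r ran from 0.833 for Tmem160 to 0.850 for Prdx5. Among the members themselves, where each gene is part of the mean, it ran from 0.168 for Jun to 0.848 for Zfp36. None of the 8 belonged to the lists of rapidly induced genes described here, and with libraries that stand apart in both fractions a likeness of this kind says only that these genes were high or low in the same libraries.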

How the data were processed

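RNA was sequenced as single reads from the input and the anti-HA IP of 10 tumors. The authors aligned reads with STAR 2.7.4a and counted them with featureCounts (versions 2.0.1 and 1.5.2 in the submitters' processing notes), and deposited raw counts of 20 libraries without normalization. The signal values of a second table, deposited by the authors for 6 IP libraries, equal counts divided by a constant per library (100% of values within a relative tolerance of 1e-06) and served only to identify the libraries kept. That table also holds the authors' fold changes and p values, which were not used. Gene positions in the count table differ from GRCm38 for all 10 members and were read as GRCm39, whereas the methods name mm10. Promoter sequences came from RefSeq (GRCm38.p6) and are not placed on the coordinates of the count table.

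Groups were compared with edgeR 4.0.16 (TMM, filterByExpr, quasi-likelihood test, Benjamini-Hochberg over all genes tested, adjusted p under 0.05) in R 4.3.3. DESeq2 1.42.0 and limma 3.58.1 (voom with sample quality weights) served as alternatives, beside other scaling, no filter, a tumor or replicate block, each tumor left out, the tumors kept by the study and, added later, the omission of 3 tumors. Log2 CPM used a prior count of 2. Standard errors were derived from the fold change and F. On simulated counts with 200 changed genes, those recovered of 4-fold and of 2-fold changes were 91 of 95 and 68 of 105 for IP against input (14488 genes), 96 of 105 and 49 of 95 for the 6 kept IP libraries (13999 genes), 90 of 109 and 23 of 91 for 10 IP libraries (13602 genes), 70 of 90 and 30 of 110 for input (13683 genes), and 63 of 105 and 6 of 95 for the interaction (14488 genes). IP and input with the same number were taken as 1 lysate, by the protocol and the numbers in their titles. Deviations of the same tumor in both fractions correlated at over 0.1 in 4 of 5 control IgG and 4 of 5 6-3-A6 tumors. They ran from 0.046 to 0.699 in control IgG and from -0.078 to 0.513 in 6-3-A6. An input correlated best with its own IP in 3 of 5 control IgG and 4 of 5 6-3-A6 tumors. All 10 members are given in each comparison. Of the other lists of rapidly induced, upstream and heat shock genes, the 2 largest and 2 smallest called fold changes were named. Members and lists were chosen with earlier results of these data known.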

Additional observations from a re-analysis of the deposited data

Results flagged for a closer look

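Of 40 sets of 5 libraries (10 genes in 4 groups), 6 held a library whose gap to its nearest neighbour in log2 CPM was over 0.71 of the range of the set, where chance gives about 1 in 20. The rule was applied to log2 CPM only, and the values that follow are given in CPM. In control IgG IP 1, 5 members stood far above the rest of their group: Fosb with 16.6 CPM (next highest 6.26 CPM), Junb with 185.3 CPM (92.9 CPM), Egr1 with 199.9 CPM (97.6 CPM), Ier2 with 118.8 CPM (45.5 CPM) and Zfp36 with 193.1 CPM (56.8 CPM). These are 5 values of 1 library and not separate events. In 6-3-A6 input 4, Fosb stood far below with 1.05 CPM, where the next lowest 6-3-A6 input had 6.08 CPM and the lowest control IgG input 4.64 CPM, and this value rests on 10 counts. No member had opposite directions of IP over input in the 2 treatment groups in every tumor.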

How the results depend on the processing

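In IP against input, 4 members were called in the comparison given above and 3 to 6 with each tumor left out, and 2 (Dusp1 and Egr1) over the tumors kept by the study, where 3416 genes were called in place of 5856, with fewer libraries. Dusp1 was called under every alternative run, and Egr1 under all but the fits within 6-3-A6 alone, with and without the block. With the replicate block (tumor), 5 members were called, Fos in addition, and the block changed no other call of a member in IP against input. Zfp36 turned to 0.0050 without a filter and ran from -0.33 to 0.11 over single tumors left out.

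In the 6 kept IP libraries, 646 genes were called, against 1242 with DESeq2, 1459 without a filter and 1879 with voom, and 9 to 653 with each library left out. Members called were 1, against 2 without a filter, 3 with voom and 0 to 1 with each library left out. Jun turned to 0.11 with voom. The cause of these differences was not tested. Over single libraries left out, Jun ran from -0.14 to 0.031 and Zfp36 from -0.052 to 0.087.

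For 6-3-A6 against control IgG in input, uncalled values changed sign. With voom, Fosb was at 0.40, Junb at 0.093 and Nr4a1 at 0.38. Without control IgG tumor 1 and 6-3-A6 tumors 4 and 5 they were at 0.40, 0.080 and 0.31. Over the tumors kept, Fosb was at 0.0093 and Zfp36 at -0.21, and with the replicate block (number) Zfp36 was at -0.030. Over single libraries left out, Fosb ran from -0.21 to 0.24, Junb from -0.086 to 0.026, Nr4a1 from -0.15 to 0.16 and Zfp36 from -0.28 to 0.50. The replicate numbers do not pair the treatments: the correlation of deviations was over 0.1 for 1 of 5 numbers in input and 1 of 5 in IP, and the block left 0 genes called.

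In all 10 IP libraries, voom gave Junb 0.067, Nr4a1 0.14 and Zfp36 0.15, and without the 3 tumors they were at 0.31, 0.41 and 0.15, with Ier2 at 0.0060. Over single libraries left out, Fosb ran from -0.080 to 0.65, Jun from -0.014 to 0.20, Junb from -0.23 to 0.21, Atf3 from -0.066 to 0.17, Ier2 from -0.47 to 0.13, Nr4a1 from -0.27 to 0.23 and Zfp36 from -0.52 to 0.34.

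The interaction changed sign in 42 of 170 values over the 10 members and all alternatives, and none was called. Dusp1 was at 0.33 with voom, 0.60 over the tumors kept and 0.33 without the 3 tumors, and Zfp36 at 0.023, 0.23 and 0.15. Over single tumors left out, Dusp1 ran from -0.57 to 0.069 and Zfp36 from -0.70 to 0.027. The number of genes whose input and IP correlated was 682 and ran from 73 to 1440 with each tumor left out, and r ran from -0.095 to 0.57 for Atf3 and from -0.48 to 0.45 for Ier2. The count of SDs above the median gene, 26 of 40, ran from 21 to 27. Mean log2 CPM of the members moved by less than 1 SD under other scaling, another prior count and each library left out. Depth did not limit the members, apart from Fosb in 6-3-A6 input 4.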
